A study of Saccharomyces cerevisiae with 8 samples.

Results

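Ammonium assimilation in budding yeast is carried out by a small set of enzymes, and the genes described here are GDH1, GDH3, GLN1 and GDH2. They were chosen by name, through the systematic name of their coding transcript in the deposited annotation, and 4 of the 5 genes listed (GLT1, for glutamate synthase, is not analysed here) were measured among 6030 annotated transcripts, 4928 of them coding. Newly made RNA was counted in 4 groups of Saccharomyces cerevisiae cultures with 2 libraries each. Cultures in YPD, a rich medium with glucose, were kept at 30 °C until the OD600 reached 0.8, and 5 mM 4-thiouracil was then given for 6 min, which marks the RNA made in that time. The groups were the parent strain HS1004 and 1 strain each with the allele med7-1002 (J121), med21-1002 (J20) or med10-1002 (J84), so allele and strain cannot be told apart, and the labels do not say what the alleles change. Med7, Med21 and Med10 are subunits of the middle module of Mediator, the complex that passes signals from activators to RNA polymerase II, and the study asked how such mutations affect transcription across the genome. All 4 strains are labelled MATa and share the markers ura3, trp1-1, a leu2 allele, his3-11,15 and ade-, the resistance alleles can1-100 and cyh2r, and the entry hsp82- DHSE-lacZ.

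Ammonium enters metabolism through 2-oxoglutarate, which glutamate dehydrogenases linked to NADP (Gdh1 and its paralog Gdh3) turn into glutamate. Glutamine synthetase (Gln1) adds another ammonium to make glutamine, and the NAD-linked dehydrogenase Gdh2 runs the other way, releasing ammonium from glutamate. Yeast is known to tune these genes to its nitrogen supply through the GATA activators Gln3 and Gat1 and the GATA repressors Dal80 and Gzf3, with further input from Gcn4, Leu3, the Hap complex and the Rtg factors.

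The libraries held 10962170 to 23629303 counts assigned to transcripts, and between 32.7% and 49.5% of reads fell on no annotated transcript, the highest share being that of med7-1002 replicate 1. The med7-1002 libraries stood apart. Between their replicates the log2 difference had an SD of 0.92 across 5746 transcripts, against 0.23 to 0.37 in the other groups. In them all 5 measured markers of MATa cells rose against parent and all 4 of MATalpha cells fell. The summed level of the MATa markers was 482 and 698 CPM (counts scaled to a common library size) in med7-1002 and 15.0 to 63.4 CPM elsewhere, and that of the MATalpha markers 61.0 and 70.2 against 848 to 1287 CPM. A MATa marker was at 0 in 1 library each of med21-1002 and med10-1002, and 2 MATalpha markers were at 0 in med7-1002 replicate 2. In the parent, med21-1002 and med10-1002 libraries the markers thus went against the MATa label. In every comparison with med7-1002 this marker difference and the allele cannot be told apart, so the part of either could not be tested. Results for the other mutants are also given without the med7-1002 libraries. Levels also varied with transcript length: in med7-1002 replicates 1 and 2 the median of transcripts over 3000 nt lay −0.50 and −0.14 from parent on the log2 scale, and that of transcripts from 1000 to 2000 nt −0.05 and 0.02. GDH2 belongs to the first class and GDH1, GDH3 and GLN1 to the second. The labels list the 2 libraries of each group as samples but name no separate cultures, so a p-value here refers to the spread among these libraries alone, and that spread may be technical.

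In the parent strain GDH1 and GLN1 had nearly the same level of newly made RNA per length, GDH2 a lower one, and GDH3 a very low one. These levels are counts per annotated length and not measured rates of synthesis. Per kilobase of annotated transcript, GDH1 stood at 124 and 113 CPM in the parent libraries and GLN1 at 125 and 128, higher than 74.8% to 78.5% of coding genes. GDH2 stood at 73.2 and 69.0 CPM per kb. GDH3 stood at 4.02 and 4.50 CPM per kb, from 113 and 122 counts, and 3.20% and 3.48% of coding genes lay below it. GDH3 is known in yeast as the copy used on poor carbon sources, and it made up 3.13% and 3.84% of the pair per length.

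The sequences upstream of the 4 transcripts are shown because the factors known to control these genes were also measured, and their binding letters can be located here. Each run covers 300 bases before the transcript start of the deposited annotation, read 5′ to 3′ on the gene's strand from the RefSeq genome of build R64. Capitals mark matches, on either strand, to the motif of the GATA factors, which is GATAAG, or to that of Gcn4, which is TGACTC. They also mark CCAAT, the letters the Hap complex is known to bind, the palindromic element of Leu3, and the Rtg motif GTCAC. GDH1 (YOR375C) lies on chromosome XV, 1041580 to 1043110, minus strand, and its window is chrXV:1043111-1043410. GDH3 (YAL062W) lies on chromosome I, 31521 to 33015, plus strand, with the window chrI:31221-31520. GLN1 (YPR035W) lies on chromosome XVI, 642091 to 643471, plus strand, with the window chrXVI:641791-642090. GDH2 (YDL215C) lies on chromosome IV, 70486 to 73964, minus strand, with the window chrIV:73965-74264.
GDH1: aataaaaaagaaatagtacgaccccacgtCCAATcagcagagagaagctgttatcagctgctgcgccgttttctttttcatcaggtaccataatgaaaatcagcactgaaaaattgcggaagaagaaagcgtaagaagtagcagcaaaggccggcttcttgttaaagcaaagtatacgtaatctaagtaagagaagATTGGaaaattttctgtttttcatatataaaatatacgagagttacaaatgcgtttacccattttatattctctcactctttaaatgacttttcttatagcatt
GDH3: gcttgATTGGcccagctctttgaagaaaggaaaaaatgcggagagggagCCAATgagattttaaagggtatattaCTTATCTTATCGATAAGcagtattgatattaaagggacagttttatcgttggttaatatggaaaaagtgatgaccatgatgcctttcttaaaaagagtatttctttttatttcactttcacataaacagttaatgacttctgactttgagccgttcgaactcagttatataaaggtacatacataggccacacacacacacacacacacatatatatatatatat
GLN1: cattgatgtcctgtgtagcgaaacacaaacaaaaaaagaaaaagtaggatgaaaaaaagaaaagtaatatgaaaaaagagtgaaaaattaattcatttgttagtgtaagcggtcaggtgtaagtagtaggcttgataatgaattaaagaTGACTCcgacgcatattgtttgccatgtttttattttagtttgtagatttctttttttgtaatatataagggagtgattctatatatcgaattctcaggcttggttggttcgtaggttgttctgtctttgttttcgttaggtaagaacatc
GDH2: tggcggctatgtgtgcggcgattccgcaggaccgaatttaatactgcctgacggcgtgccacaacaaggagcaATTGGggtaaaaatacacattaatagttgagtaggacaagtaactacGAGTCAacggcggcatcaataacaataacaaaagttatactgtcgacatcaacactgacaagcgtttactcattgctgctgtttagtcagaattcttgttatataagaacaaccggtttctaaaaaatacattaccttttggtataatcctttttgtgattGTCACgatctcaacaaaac

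GDH3 was the member with GATAAG in its window, at 3 places that end 220, 215 and 209 bases before the transcript start, the first pair sharing 1 base. GATAAG occurred in 14.3% of the 4842 windows of the same length, and at 2 or more places in 1.40%. GLN1 and GDH2 each held 1 TGACTC, ending 146 and 175 bases before the start, a motif found in 8.49% of windows. CCAAT occurred at 2 places in GDH1, 2 in GDH3 and 1 in GDH2, against 42.5% of windows with at least 1. GDH2 also held GTCAC, 15 bases before the start (27.0% of windows). The Leu3 element was in none of the 4 and in 0.207% of windows. A match is only a match of letters, and its absence says nothing of a factor that binds elsewhere.

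GDH1 and GLN1, the genes that put ammonium into glutamate and glutamine, rose in med7-1002, where GDH3 fell. GDH1 stood at 190.2 and 172 CPM in parent and at 843 and 1139 CPM in med7-1002, so that the groups lay far apart. It rose 5.47-fold (log2 2.45, SE 0.17, edgeR adjusted p = 1.63e-05), and 105 of the 5746 transcripts tested rose more. GLN1 stood at 173 and 176 CPM in parent and at 464 and 686 CPM in med7-1002, again without overlap. It rose 3.29-fold (log2 1.72, SE 0.18, edgeR adjusted p = 9.55e-05). Values are shares of a library, so more of an RNA being made and less of all other RNA cannot be told apart. Nor do libraries of whole cultures separate the number of cells making an RNA from its amount per cell.

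GDH3 stood at 6.01 and 6.73 CPM in parent and at 3.60 and 3.30 CPM in med7-1002, from 41 and 67 counts there. The med7-1002 libraries were both lower, a fall by 0.89 on the log2 scale (SE 0.32, edgeR adjusted p = 0.0454). GDH2 stood at 255 and 239.9 CPM in parent and at 156 and 233 CPM in med7-1002, with replicate 2 close to the parent libraries. Its log2 fold change of −0.34 (SE 0.19) did not pass (edgeR adjusted p = 0.159). In all, 3 of the 4 genes passed, 2 higher and 1 lower, where 48.6% of all transcripts did (25.9% higher and 22.6% lower), so the count is not a result about these genes. The fall of GDH3 no longer passed without parent replicate 1 (adjusted p = 0.141) or 2 (0.185), med21-1002 replicate 1 (0.0557) or 2 (0.0515), or med10-1002 replicate 1 (0.103) or 2 (0.114), and with only the compared groups fitted (0.187). GDH2 stood at log2 −0.68 without med7-1002 replicate 2, at −0.08 without replicate 1 and at −0.05 after correction for transcript length. Leaving out either of these replicates also removes the spread between them from the fit. GDH2 passed with library size alone (log2 −0.48, edgeR adjusted p = 0.00907) and with upper-quartile scaling (log2 −0.47, edgeR adjusted p = 0.0184). Library size alone moved the median of all transcripts by −0.11.

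**Figure D1:**
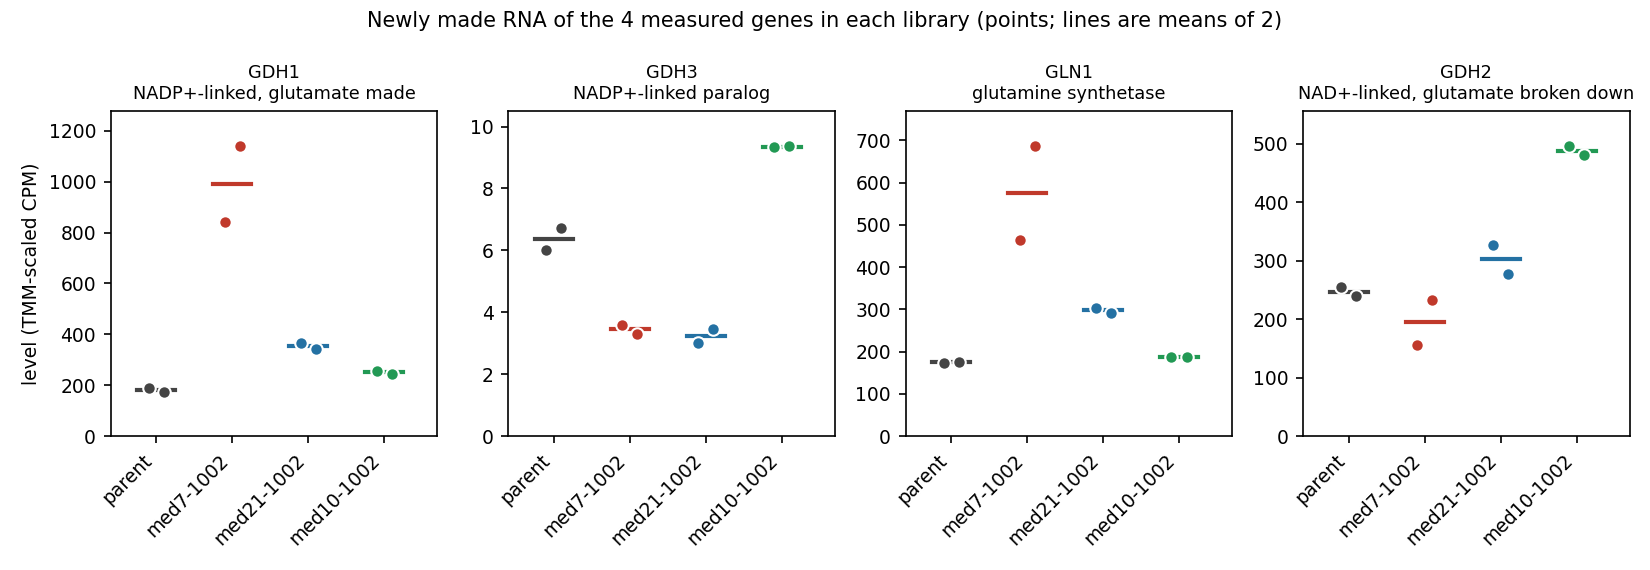
Level of each measured gene in TMM-scaled CPM (y axis, linear from 0, its own scale per gene) in each library (points) of the 4 groups, with the mean of 2 libraries as a line. GDH1 and GLN1 are highest in med7-1002, at 843 to 1139 and 464 to 686 CPM, while GDH3 and GDH2 are highest in med10-1002, at 9.34 to 9.36 and 480.3 to 496 CPM.

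In med21-1002 GDH1 and GLN1 also rose, by smaller steps. GDH1 stood at 367 and 344 CPM, both above the parent libraries, a rise of 1.96-fold (log2 0.97, SE 0.16, edgeR adjusted p = 0.00869). GLN1 stood at 303 and 292 CPM, also above both parent libraries, a rise of 1.70-fold (log2 0.77, SE 0.18, edgeR adjusted p = 0.0338). GDH3 stood at 3.01 and 3.45 CPM, below both parent libraries, with a log2 fold change of −0.98 (SE 0.32) that did not pass (edgeR adjusted p = 0.110). GDH2 stood at 327 and 278 CPM, above the parent libraries, and its log2 fold change of 0.29 (SE 0.19) did not pass either (edgeR adjusted p = 0.427).

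Thus 2 of the 4 genes passed in med21-1002, both higher, where 7.8% of all transcripts did (3.88% higher and 3.92% lower). Without the med7-1002 libraries all 4 passed, 3 higher and 1 lower (29.7% of all transcripts, 14.8% higher and 14.9% lower), GDH3 with an edgeR adjusted p of 0.00661 and GDH2 with 0.0360, at log2 fold changes of −0.99 and 0.29. GDH3 and GDH2 also passed when 1 med7-1002 library was left out, with adjusted p of 0.00711 and 0.0359 without replicate 1 and 0.00745 and 0.0369 without replicate 2. GDH3 passed besides in DESeq2 (adjusted p = 0.0409) and with only the compared groups fitted (0.0243). Leaving out 1 of the compared libraries ended both calls. For GDH1 the adjusted p was 0.0881 and 0.0715 without parent replicate 1 or 2, and 0.0811 and 0.0790 without med21-1002 replicate 1 or 2. For GLN1 it was 0.256, 0.150, 0.166 and 0.194 in that order, and 0.0912 without med10-1002 replicate 2.

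The pattern in med10-1002 was another one, since GDH2, the gene of glutamate breakdown, rose and GLN1 stayed near the parent level. GDH2 stood at 496 and 480.3 CPM, well above both parent libraries, a rise of 1.97-fold (log2 0.98, SE 0.19, edgeR adjusted p = 0.0195). GLN1 stood at 188 and 187 CPM, a log2 fold change of 0.10 (SE 0.17) that did not pass (edgeR adjusted p = 0.775). GDH1 stood at 258 and 244 CPM, above the parent libraries, with a log2 fold change of 0.47 (SE 0.16) that did not pass (edgeR adjusted p = 0.116). GDH3 stood at 9.34 and 9.36 CPM, its highest level in the 4 groups, with a log2 fold change of 0.55 (SE 0.31) that did not pass (edgeR adjusted p = 0.297).

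One of the 4 genes passed in med10-1002, and it was higher, against 7.55% of all transcripts (4.93% higher and 2.63% lower). Without the med7-1002 libraries 3 did, all higher (36.9% of all transcripts, 20.8% higher and 16% lower), with edgeR adjusted p of 1.36e-05 for GDH2, 0.00108 for GDH1 and 0.0433 for GDH3, at log2 fold changes of 1.00, 0.49 and 0.58. GDH1 also passed without med7-1002 replicate 1 (adjusted p = 0.00178) or 2 (0.00216), with only the compared groups fitted (1.49e-05), in DESeq2 (0.0245), with library size alone (0.0213) and with upper-quartile scaling (0.0334). GDH3 also passed with only the compared groups fitted (0.0148). The rise of GDH2 did not pass without parent replicate 1 (adjusted p = 0.151) or 2 (0.149) and without med10-1002 replicate 1 (0.111) or 2 (0.131).

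**Figure D2:**
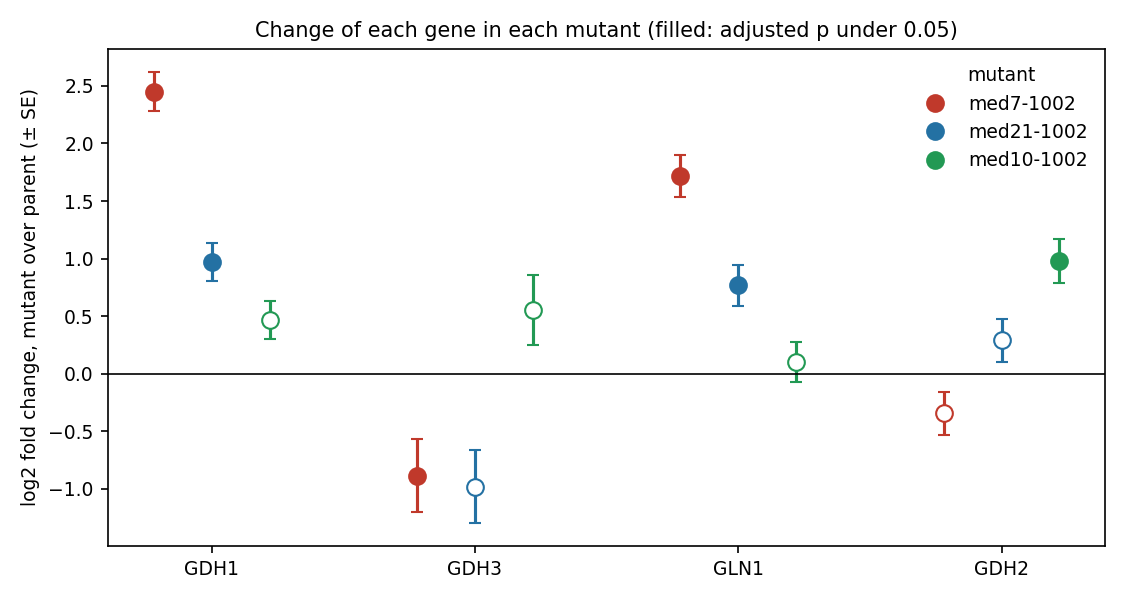
Log2 fold change of each gene over parent (y axis) with its SE from the edgeR fit, for the 3 mutants (colours), filled where the adjusted p is under 0.05. GDH1 and GLN1 are called in med7-1002 and med21-1002 (2.45 and 1.72, 0.97 and 0.77), GDH3 in med7-1002 (−0.89) and GDH2 in med10-1002 (0.98).

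Mutants were also tested against each other. By mean level GDH1 ran in the order med7-1002, med21-1002, med10-1002 and parent, and not all neighbours differed beyond their spread. Its difference between med7-1002 and med21-1002 passed (log2 1.48, SE 0.17, edgeR adjusted p = 2.84e-04), while the neighbours med21-1002 and med10-1002 (log2 0.50, SE 0.16, edgeR adjusted p = 0.0603) did not, nor did med10-1002 and parent (edgeR adjusted p = 0.116). The difference between med21-1002 and med10-1002 passed without the med7-1002 libraries (edgeR adjusted p = 7.19e-04), without either of them alone (6.34e-04 and 7.29e-04), in DESeq2 (0.0131), with library size alone (0.00877), with upper-quartile scaling (0.0197), with only the compared groups fitted (0.00213), and with the length correction (0.0142).

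GLN1 had the same order of mean levels, with med10-1002 and parent not told apart. It was higher in med7-1002 than in med21-1002 (log2 0.95, SE 0.18, edgeR adjusted p = 0.00301) and higher in med21-1002 than in med10-1002 (log2 0.67, SE 0.18, edgeR adjusted p = 0.0303). The latter call was lost without parent replicate 1 (0.0726), med21-1002 replicate 1 (0.128) or 2 (0.155), or med10-1002 replicate 1 (0.121) or 2 (0.190).

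By mean level GDH2 ran in the order med10-1002, med21-1002, parent, med7-1002, and parent was not told apart from med21-1002 or med7-1002. It was lower in med21-1002 than in med10-1002 by a log2 difference of −0.69 (SE 0.19, edgeR adjusted p = 0.0339), and lower in med7-1002 than in med21-1002 by −0.64 (SE 0.19, edgeR adjusted p = 0.0254). The first was lost without parent replicate 1 (0.0761), med21-1002 replicate 1 (0.0876) or 2 (0.232), or med10-1002 replicate 1 (0.138) or 2 (0.152). The second was lost without parent replicate 1 (0.0516) or med21-1002 replicate 1 (0.166) or 2 (0.0535), and with only the compared groups fitted (0.0745). After the length correction the second difference was −0.28.

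GDH3 was lower in both med7-1002 and med21-1002 than in med10-1002, with log2 differences of −1.44 (SE 0.32, edgeR adjusted p = 0.00474) and −1.53 (SE 0.32, edgeR adjusted p = 0.0124). Its level in med7-1002 and med21-1002 could not be ordered (log2 0.09, SE 0.32, edgeR adjusted p = 0.838). The difference between med21-1002 and med10-1002 no longer passed without med21-1002 replicate 1 (0.0682) or 2 (0.0734) or med10-1002 replicate 1 (0.130) or 2 (0.113). In all, 3 of the 4 genes passed between med7-1002 and med21-1002, all 4 between med7-1002 and med10-1002, and 3 between med21-1002 and med10-1002, where 40.7%, 54.9% and 20% of all transcripts did. Higher and lower in the mutant named first were 22.1% and 18.6%, 29.9% and 25%, and 9.38% and 10.6% of transcripts, in that order. Without the med7-1002 libraries all 4 passed between med21-1002 and med10-1002, where 47.4% of all transcripts did (22.4% higher and 24.9% lower in med21-1002). Against med10-1002, med7-1002 differed by log2 1.98 for GDH1, 1.62 for GLN1 and −1.33 for GDH2 (edgeR adjusted p = 3.29e-05, 1.11e-04 and 4.67e-04). All comparisons with parent share its 2 libraries.

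Ratios within a library do not depend on the scaling between libraries. Per kilobase, GDH1 stood at 1.70 and 1.63 times GDH2 in parent, 12.3 and 11.1 times in med7-1002, 2.54 and 2.82 times in med21-1002, and 1.18 and 1.15 times in med10-1002. The synthesis gene thus stood well above the breakdown gene per length in med7-1002 and almost level with it in med10-1002, and no 2 groups overlapped. These ratios are not corrected for the trend over transcript length, and GDH2 has the longest transcript. With that correction the log2 fold change in med7-1002 was −0.05 for GDH2, against −0.34 without it, and 2.51 for GDH1, against 2.45. GDH1 stood at 30.9 and 25.01 times its paralog GDH3 in parent, 228 and 338 times in med7-1002, 119 and 97.2 times in med21-1002, and 26.9 and 25.4 times in med10-1002. The med10-1002 libraries lay within the parent range here, and both other mutants far above it. GDH1 to GLN1 varied least, from 0.882 and 0.990 in parent to 1.64 and 1.498 in med7-1002. With 2 libraries a group these ratios are given as a description.

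**Figure D3:**
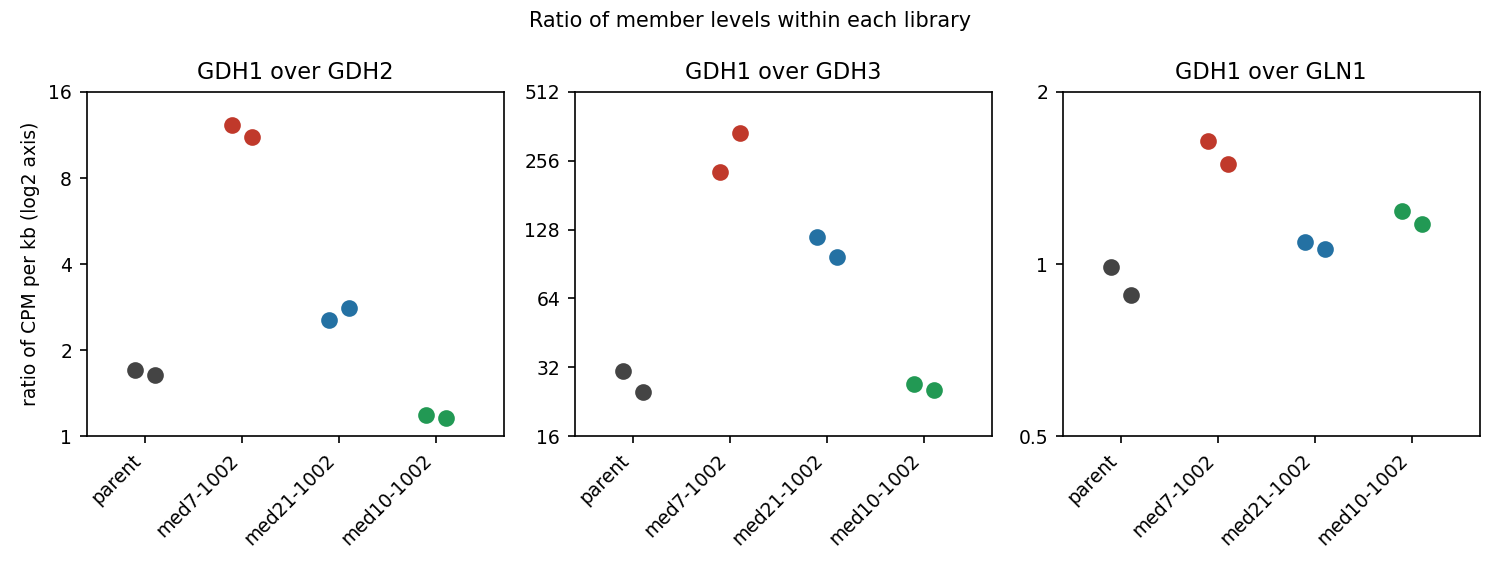
Ratio of CPM per kb of GDH1 to GDH2, GDH3 and GLN1 (y axes, log2 scale) in each library (points) of the 4 groups. GDH1 over GDH2 lies at 11.1 to 12.3 in med7-1002 and at 1.15 to 1.18 in med10-1002, on either side of the parent libraries at 1.63 and 1.70.

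The GDH3 counts carry limits of their own. Its coding sequence is identical to that of GDH1 at 76.7% of 1365 aligned bases, with a longest shared run of 35 bases. How reads that map to both were treated is not stated, and their part in the GDH3 counts was not tested. The noncoding transcript SUT434 covers 96.9% of GDH3 on the opposite strand, and XUT_1R-18 covers 88.4%. SUT434 had 35 and 37 counts in the parent libraries, 20 and 28 for med7-1002, 19 and 22 for med21-1002, and 64 and 63 for med10-1002. SUT434 did not pass against parent in med7-1002, med21-1002 or med10-1002 (log2 −0.32, −0.68 and 0.64, edgeR adjusted p = 0.619, 0.494 and 0.447). XUT_1R-18 had 2 to 30 counts a library and did not pass either (log2 −0.82, −1.52 and 0.20, edgeR adjusted p = 0.415, 0.329 and 0.901). SUT434 and XUT_1R-18 overlap each other on the same strand, and how reads of their shared stretch were counted was not tested. No source used here states the strand setting of the counting, and whether reads from one strand entered the count of the other was not tested. The other 3 genes overlap no annotated transcript.

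Among genes of ammonium transport and nitrogen control, GAT1, which encodes a GATA activator, fell in all 3 mutants. Parent libraries held 349.6 and 407 CPM, those of med7-1002 77.3 and 88.0, those of med21-1002 133 and 123, and those of med10-1002 149 and 154, with no overlap of any mutant with parent. The log2 fold changes were −2.19, −1.56 and −1.32 (edgeR adjusted p = 1.28e-05, 3.74e-04 and 0.00145), and each passed under all 18 alternatives tried. The other GATA activator gene, GLN3, fell by 1.02 in med7-1002 (edgeR adjusted p = 8.55e-04) and stood at log2 −0.21 and −0.22 in med21-1002 and med10-1002, neither past the threshold (edgeR adjusted p = 0.501 and 0.430).

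GZF3, a GATA repressor gene, moved in opposite directions. It stood at 123 and 135 CPM in parent and at 379 and 379 CPM in med10-1002, a rise of 2.94-fold (edgeR adjusted p = 8.60e-04). In med7-1002 it fell to 69.9 and 81.9 CPM (log2 −0.76, edgeR adjusted p = 0.00127), and in med21-1002 it stood at log2 −0.27 (edgeR adjusted p = 0.266). DAL80 and URE2 are not analysed here.

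MEP1, MEP2 and MEP3 encode the ammonium permeases. MEP1 fell in med7-1002, from 204 and 203 CPM to 49.2 and 81.9 CPM (3.09-fold, edgeR adjusted p = 3.21e-04), and in med21-1002 to 96.5 and 112.3 CPM (1.95-fold, edgeR adjusted p = 0.0274). The latter call was lost without either parent or either med21-1002 library or without med10-1002 replicate 2, with adjusted p up to 0.184. MEP2, the high-affinity permease, rose in med10-1002 from 51.0 and 53.9 CPM to 109.97 and 107 CPM (2.07-fold, edgeR adjusted p = 0.00774), a call lost without either parent or either med10-1002 library (adjusted p up to 0.123). In med7-1002 MEP2 fell by a log2 difference of −0.49 (edgeR adjusted p = 0.0354), a call that held under 9 of 18 alternatives. MEP3 fell in med7-1002 by 0.80 (edgeR adjusted p = 0.00498). In med21-1002 MEP2 and MEP3 stood at log2 −0.41 and −0.46 and did not pass (edgeR adjusted p = 0.189 and 0.155). In med10-1002 MEP1 and MEP3 stood at log2 −0.50 and −0.62 and did not pass either (edgeR adjusted p = 0.172 and 0.0646).

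Of the 8 genes of this list that were tested, 7 fell and 0 rose in med7-1002, 2 fell and 0 rose in med21-1002, and 1 fell and 2 rose in med10-1002, by edgeR. Of all transcripts 22.6%, 3.92% and 2.63% were called lower in these mutants, and 25.9%, 3.88% and 4.93% higher. At an unadjusted p under 0.05 the numbers were 8, 4 and 5 in either direction. Their median log2 fold changes were −0.80, −0.34 and −0.27, where the medians over all transcripts were 0.02, −0.00021 and −0.0066. Without the med7-1002 libraries 5 fell in med21-1002, and 4 fell and 2 rose in med10-1002, where 14.9% and 16% of all transcripts were called lower and 20.8% higher in med10-1002. The counts of falls in med21-1002 were 1 without either parent library, either med21-1002 library or med10-1002 replicate 2, and 5 without either med7-1002 library. In med10-1002, 4 fell without either med7-1002 library, and 1 rose without either parent or either med10-1002 library.

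Among the other regulators, HAP4, the inducible activating subunit of the Hap complex, rose in all 3 mutants. Parent libraries held 255 and 269 CPM, those of med7-1002 425 and 720.2, those of med21-1002 1111 and 1011, and those of med10-1002 611 and 584, all mutants above parent. The rises were 2.18-fold, 4.04-fold and 2.28-fold (edgeR adjusted p = 0.00321, 0.00118 and 0.0184). The call in med10-1002 was lost without any single parent, med21-1002 or med10-1002 library (adjusted p up to 0.174), and the other calls passed under all 18 alternatives. LEU3, which encodes an activator of GDH1 that responds to the leucine pathway, fell by 0.56 on the log2 scale in med7-1002 (edgeR adjusted p = 0.00452), a call lost with the length correction. LEU3 stood at −0.22 and 0.03 in med21-1002 and med10-1002 (edgeR adjusted p = 0.342 and 0.926). GCN4, the activator of amino acid synthesis genes, stood at log2 0.52, 0.15 and 0.56 and did not pass (edgeR adjusted p = 0.0637, 0.731 and 0.129). GCN4 is controlled mainly at translation, which these counts do not measure.

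Of the 9 regulators tested, 1 rose and 2 fell in med7-1002, 1 rose and 0 fell in med21-1002, and 2 rose and 0 fell in med10-1002, by edgeR (5, 2 and 4 at an unadjusted p under 0.05, and 0 falls in med21-1002 and med10-1002 by DESeq2 as well). In either direction 48.6%, 7.8% and 7.55% of all transcripts were called, and the count in med7-1002 is below that share. Without the med7-1002 libraries 1 regulator fell in med21-1002 and 2 fell in med10-1002, where 14.9% and 16% of all transcripts were called lower. With only the compared groups fitted 1 and 4 fell, where 1213 of 5653 and 2997 of 5683 transcripts were called in either direction. The second riser in med10-1002 was HAP5 (log2 0.72, edgeR adjusted p = 0.0414). In med10-1002 0 rose without any single parent, med21-1002 or med10-1002 library, and 3 rose without either med7-1002 library. In med7-1002 3 rose without med7-1002 replicate 1 and 2 without replicate 2. RTG3, an Rtg factor gene, had a log2 fold change of −0.80 in med7-1002 (edgeR adjusted p = 5.50e-04).

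Of 15 genes for enzymes and carriers of 2-oxoglutarate, the carbon skeleton for ammonium, 8 rose and 3 fell in med7-1002, where 25.9% of all transcripts were called higher and 22.6% lower. Among the risers was IDP1, the mitochondrial NADP-linked isocitrate dehydrogenase, from 207 and 201 CPM to 430.3 and 680 CPM (2.72-fold, edgeR adjusted p = 5.02e-04). KGD2 and LPD1, for subunits of 2-oxoglutarate dehydrogenase, which consumes it, rose 2.35-fold and 2.72-fold (edgeR adjusted p = 2.10e-04 and 2.55e-04), and IDH2, a subunit of NAD-linked isocitrate dehydrogenase, rose 1.85-fold (3.11e-04). KGD2 and CIT1, the mitochondrial citrate synthase, rose in med21-1002 (log2 0.72 and 0.50, edgeR adjusted p = 0.0224 and 0.0477), and CIT1 and ACO1, aconitase, rose in med10-1002 (log2 0.52 and 0.87, edgeR adjusted p = 0.0420 and 0.0431). Each of these was lost when either library of either compared group was left out, with adjusted p up to 0.322. CIT2, the peroxisomal citrate synthase and classic Rtg target, stood at 398 and 451 CPM in parent and at 704 and 712 CPM in med10-1002, where it rose 1.67-fold (edgeR adjusted p = 0.0362). That call was lost without any single parent, med21-1002 or med10-1002 library, with adjusted p up to 0.277. CIT2 stood at log2 −0.15 and −0.04 in med7-1002 and med21-1002 and did not pass (edgeR adjusted p = 0.499 and 0.917). The 3 genes that fell in med7-1002 were ODC2, a mitochondrial carrier of 2-oxoglutarate, and IDP2 and IDP3, for the cytosolic and peroxisomal NADP-linked isocitrate dehydrogenases (log2 −0.82, −0.69 and −0.87, edgeR adjusted p = 5.33e-04, 0.0126 and 0.0152); IDP2 and IDP3 were singled out after their values were seen. ODC2 also fell by 0.77 in med21-1002, and it rose by 0.75 in med10-1002 (edgeR adjusted p = 0.00504 and 0.00774). The fall in med21-1002 was lost without parent replicate 1 or med21-1002 replicate 1, and the rise without either parent or either med10-1002 library.

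Of these 15 genes 2 rose and 1 fell in med21-1002, and 4 rose and 0 fell in med10-1002, by edgeR (9 and 10 at an unadjusted p under 0.05; 8 rose and 0 fell in med10-1002 by DESeq2). Of all transcripts 3.88% rose and 3.92% fell in med21-1002, and 4.93% rose and 2.63% fell in med10-1002. The medians were 0.84, 0.33 and 0.52 in med7-1002, med21-1002 and med10-1002. Without the med7-1002 libraries 8 rose and 4 fell in med21-1002, and 13 rose and 0 fell in med10-1002, against 14.8% and 14.9%, and 20.8% and 16%, of all transcripts. Either med7-1002 library left out alone gave 8 and 4 in med21-1002 and 12 and 0 in med10-1002. Without either parent or either med21-1002 library, or without med10-1002 replicate 2, 0 rose in med21-1002, and without med10-1002 replicate 1, 1 did. Of the falls in med21-1002, 0 were left without parent replicate 1 or med21-1002 replicate 1. In med10-1002 0 rose without either parent or either med10-1002 library, and 1 without either med21-1002 library.

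Among genes that form or spend glutamate, ARO9 had the largest falls of the aminotransferases and other glutamate enzymes listed, in med7-1002 and med21-1002. ARO9, the aromatic aminotransferase, had 1093 and 1077 CPM in parent libraries, 146 and 231 CPM for med7-1002, 186 and 150.2 CPM for med21-1002 and 833 and 809 CPM for med10-1002. It fell 5.76-fold and 6.45-fold in med7-1002 and med21-1002 (edgeR adjusted p = 3.91e-05 and 3.74e-04). BAT2, the cytosolic branched-chain aminotransferase, fell 2.31-fold and 2.34-fold in the same mutants (edgeR adjusted p = 3.25e-04 and 0.00227, the latter 0.0592 without med21-1002 replicate 2). GAD1, glutamate decarboxylase, rose 2.21-fold and 2.80-fold there (edgeR adjusted p = 6.21e-04 and 0.00118). PUT1, proline oxidase at the head of the route from proline to glutamate, fell 2.81-fold in med7-1002 (edgeR adjusted p = 0.00138) and 2.06-fold in med10-1002 (edgeR adjusted p = 0.0415, lost without either parent or either med10-1002 library, up to 0.296). ARG8, acetylornithine aminotransferase, rose 1.89-fold in med7-1002 and 1.85-fold in med10-1002 (edgeR adjusted p = 4.90e-04 and 0.00625, the latter lost without either parent or either med10-1002 library, up to 0.107).

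AAT2, the cytosolic aspartate aminotransferase, rose 2.29-fold in med7-1002 (edgeR adjusted p = 1.31e-04), while GSH1, the first enzyme of glutathione synthesis, fell 2.52-fold (edgeR adjusted p = 7.82e-04). UGA1, GABA aminotransferase, stood at 42.8 and 35.8 CPM in parent and at 66.3 and 153 CPM in med7-1002, far apart between replicates. It rose 2.79-fold (log2 1.48, edgeR adjusted p = 0.00487), with a log2 fold change of 0.74 without med7-1002 replicate 2 and 1.96 without replicate 1. In med21-1002 HIS5 fell and ALT2 rose (log2 −0.62 and 0.80, edgeR adjusted p = 0.0259 and 0.0477), both lost without any single parent or med21-1002 library.

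Of 11 aminotransferase genes 5 rose and 4 fell in med7-1002, 1 rose and 3 fell in med21-1002, and 1 rose and 0 fell in med10-1002 (9, 6 and 2 at an unadjusted p under 0.05), where 48.6%, 7.8% and 7.55% of all transcripts were called in either direction. Of 9 other glutamate enzymes 2 rose and 2 fell in med7-1002, 1 rose and 0 fell in med21-1002, and 0 rose and 1 fell in med10-1002 (4, 1 and 3 at an unadjusted p under 0.05). The counts of these 9 other enzymes are near the shares called among all transcripts and are not a result about them. Those of the 11 aminotransferases lay above the share in med7-1002 and med21-1002, in a list chosen with earlier results known. Of 11 glutamine amidotransferase genes, which take the amide nitrogen of glutamine, 3 rose and 2 fell in med7-1002, led by GUA1, GMP synthase (2.47-fold, edgeR adjusted p = 6.55e-04), and ASN2, asparagine synthetase (1.96-fold, edgeR adjusted p = 9.65e-04). The count of 5 of 11 is near the 48.6% called among all transcripts and is not a result about these genes. CPA1, carbamoyl phosphate synthetase, fell there (log2 −0.66, edgeR adjusted p = 0.00250), and QNS1, NAD synthetase, rose (log2 0.70, edgeR adjusted p = 0.0105, lost without either parent library and with only the compared groups fitted). None of the amidotransferase genes passed in med21-1002 or med10-1002 by edgeR, where 1 and 3 had an unadjusted p under 0.05. DESeq2 called 1 lower in med21-1002 and 3 higher in med10-1002. Without the med7-1002 libraries edgeR called 1 higher and 2 lower in med21-1002 and 5 higher in med10-1002. In that fit 14.8% of all transcripts were higher and 14.9% lower in med21-1002, and 20.8% and 16% in med10-1002. Without med7-1002 replicate 1, 6 amidotransferase genes and 5 other glutamate enzymes rose in med7-1002. With the length correction 7 amidotransferase genes rose there, and without either parent library 2 did. Amidotransferase falls there numbered 1 without any single parent or med21-1002 library or med10-1002 replicate 2. Aminotransferase falls there numbered 6 without med7-1002 replicate 2 and 2 without parent replicate 1, med21-1002 replicate 1 or med10-1002 replicate 2. In med21-1002 0 aminotransferase genes rose without any single parent, med21-1002 or med10-1002 library and 3 without either med7-1002 library, and 1 fell without med21-1002 replicate 2. In med10-1002 the 1 aminotransferase rise and the 1 fall among other enzymes were absent without any single parent or med10-1002 library. Without both med7-1002 libraries 4 other enzymes rose and 3 fell in med10-1002, and 2 rose and 1 fell in med21-1002. Of all transcripts 36.9% and 29.7% were called in these mutants in that fit.

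**Figure D4:**
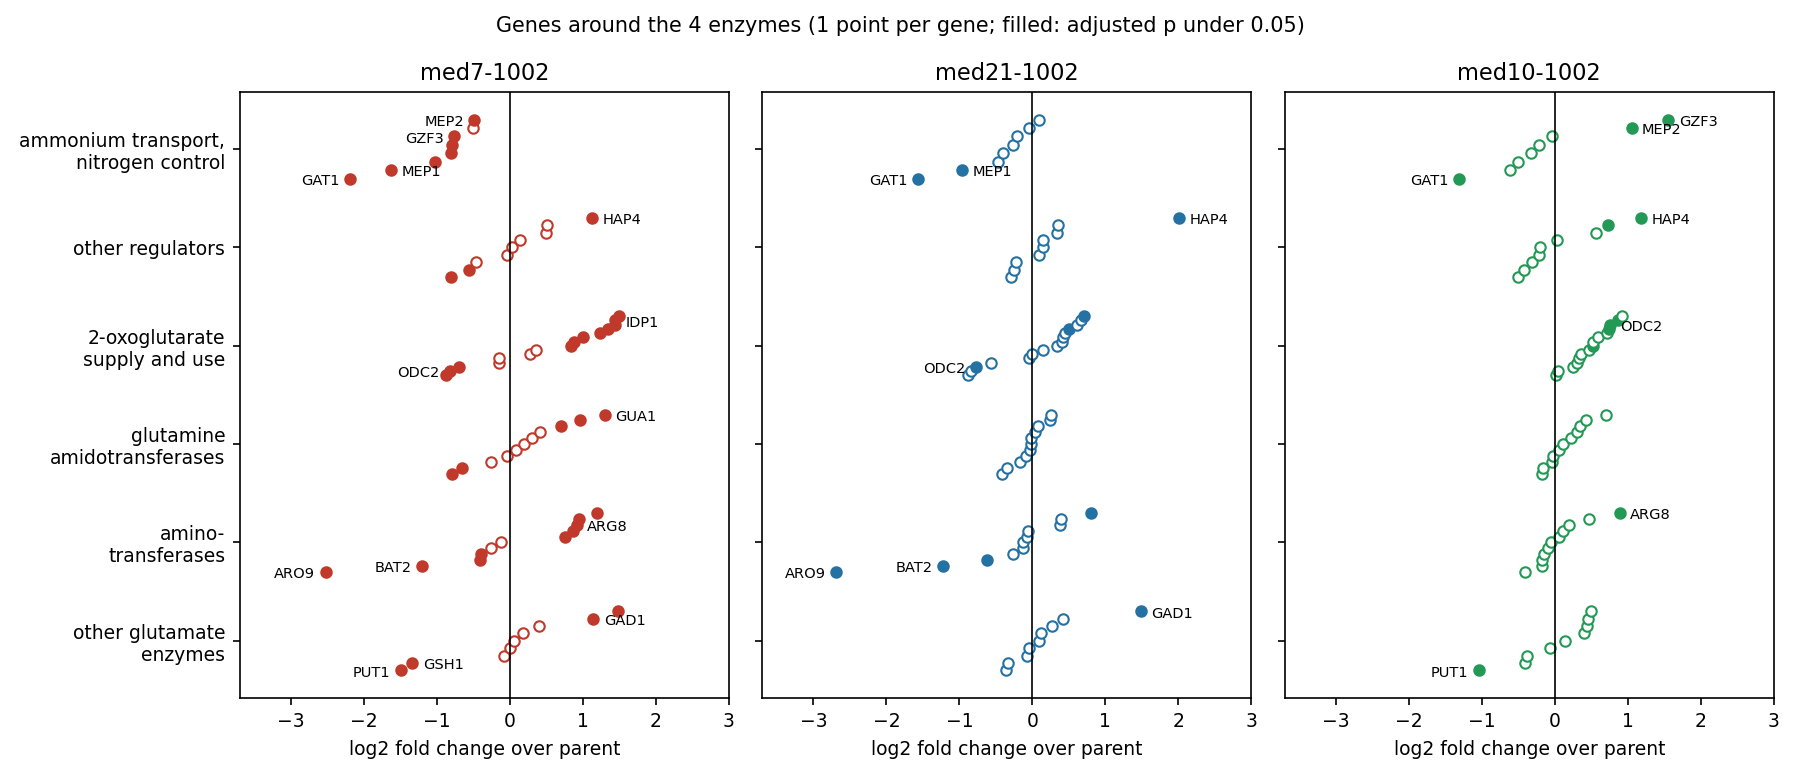
Log2 fold change over parent (x axis) of each tested gene (point) of 6 lists around the 4 enzymes in the 3 mutants (panels), filled where the edgeR adjusted p is under 0.05; some called genes are named. GAT1 lies to the left in every panel (−2.19, −1.56 and −1.32) and HAP4 to the right (1.13, 2.02 and 1.19), while GZF3 is called lower in med7-1002 (−0.76) and higher in med10-1002 (1.56).

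Over the 8 libraries, GDH1 and GLN1 followed each other (Pearson r = 0.98 of log2 CPM), and GDH1 and GDH2 did not (r = −0.50). Among 4554 other coding genes the patterns most like GDH1 were those of TUB3, an alpha-tubulin gene (r = 0.999), and CIR2 (0.997). For GLN1 they were UTH1 (0.995) and ATP7, a subunit of ATP synthase (0.994). For GDH2 they were MED1, itself a Mediator middle subunit gene (0.998), and FAA3, an acyl-CoA synthetase (0.991). For GDH3 they were IRC7 (0.987) and WSS1 (0.986), out of 4555 genes. MED1 stood at 129 and 122 CPM in parent and at 196 and 197 CPM in med10-1002, where GDH2 was also highest. IRC7 stood at 188 and 191 CPM in parent, 88.0 to 99.2 CPM in med7-1002 and med21-1002, and 301 and 307 CPM in med10-1002, so that, like GDH3, it was below parent in the former mutants and above it in the latter. These r values describe 8 libraries in 4 groups that share depth and scaling, and the highest among so many genes is high by choice.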

How the data were processed

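Newly made RNA, labelled with 4-thiouracil, was sequenced in 8 libraries. The authors deposited raw counts per transcript for each library and 1 transcript annotation. The submitters' processing notes list HTSeq, SAMtools and STAR 2.3.0 and the builds R64 and sacCer3; no source used here gives the strand setting or counting mode. The 5 tallies of reads without a transcript (32.7% to 49.5% of reads on no transcript) entered neither library sizes nor tests. Spike-in reads were not analysed here, and values are therefore shares of a library. Systematic names were matched to RefSeq R64: 4842 of 4928 coding transcripts matched, and each contained its coding interval.

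Counts were scaled by TMM and tested in edgeR 4.0.16 (R 4.3.3) by its quasi-likelihood F test. Low counts were filtered by filterByExpr (minimum 10), which removed 284 transcripts and left 5746. One model held all 8 libraries with the 4 groups as its terms (4 residual degrees of freedom). The Benjamini-Hochberg adjustment ran over all transcripts tested, with calls under 0.05. The SE is the absolute log2 fold change over the square root of F. Levels are CPM scaled by TMM, divided by annotated span where genes are compared, and log2 CPM used a prior count of 2. The procedure was tested on simulated data. Alternatives were DESeq2 1.42.0, other scalings, no filter, only the compared groups, a replicate block, a correction for the trend over transcript length in each library, and leaving out libraries. The members and lists were chosen with earlier results of these data known. In each list up to 4 called genes with the smallest adjusted p per mutant are named, and the permease and GATA factor genes, GCN4, LEU3 and CIT2 always. Listed genes not in the annotation used are not analysed here. The samples were grouped by genotype label.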

Additional observations from a re-analysis of the deposited data

How the results depend on the processing

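GDH1 and GLN1 rose in med7-1002 under all 18 alternatives, with log2 fold changes of 2.20 to 2.65 and 1.39 to 1.97. The main fit pools the spread of all 4 groups, and that between the med7-1002 libraries was the widest. With only the compared groups fitted, the SE was 0.23 and 0.24, against 0.17 and 0.18 in the main fit. Both rises passed there (edgeR adjusted p = 0.00179 and 0.00475). A fit without 1 library of a group holds no spread of that group, so its p-values rest on the other groups. All member results kept their direction, except that GDH3 between med7-1002 and med21-1002, uncalled throughout, ran from −0.0077 to 0.18 over single libraries left out. The number of the 4 genes called in med21-1002 against parent was 2, became 4 without the med7-1002 libraries and 1 with the replicate block, and ran from 0 to 4 with single libraries left out. In med10-1002 against parent it was 1, became 2 with library size alone, with upper-quartile scaling and in DESeq2, became 3 with only the compared groups and without the med7-1002 libraries, and ran from 0 to 2 with single libraries left out. Between med21-1002 and med10-1002 it was 3, became 1 with the replicate block and ran from 0 to 4 with single libraries left out. Over all transcripts the calls in med21-1002 and med10-1002 numbered 448 and 434, and 1694 and 2102 without the med7-1002 libraries, 1213 and 2997 with only the compared groups, 772 and 890 in DESeq2, 726 and 729 with the length correction, and 269 and 202 with the replicate block. They fell to 107 and 34 without parent replicate 1, to 136 and 35 without replicate 2, to 181 and 109 in med21-1002 without its replicate 1 or 2, and to 52 and 57 in med10-1002 likewise. They were 279 and 242 without replicate 1 of the other of these mutants and 214 and 234 without its replicate 2, and 1695 and 2091, or 1681 and 2065, without med7-1002 replicate 1 or 2. In med7-1002 they numbered 2790, 1902 with only the compared groups, and 1847 to 3936 with single libraries left out. The cause of these changes was not tested.

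The replicate numbers do not pair the libraries: deviations of same-numbered libraries correlated at −0.19 to 0.094. The block ended the calls of GDH3 in med7-1002 (adjusted p = 0.0759, and 0.0627 with the length correction) and of GLN1 in med21-1002 (0.0604), and those of GLN1 and GDH2 between med21-1002 and med10-1002 (0.0505 and 0.0656). Block and length correction together ended that of GDH2 between med7-1002 and med21-1002 (0.0720) and gave GDH1 a call between med21-1002 and med10-1002 (0.0320). The block left 0 rises among the 2-oxoglutarate genes in med21-1002 and 1 in med10-1002. Crossing the med7-1002 numbers, an alternative chosen after seeing the data, gave 2949 calls in med7-1002, against 2550 with the numbers as labelled, and an adjusted p of 0.0586 for GDH3. GDH3 rests on 41 to 198 counts a library, which limits its precision.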
